A study of Mus musculus with 2 samples.

Results

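Venous tumor endothelial cells (TECs) in which no transcript of the chemokine-scavenging receptor Ackr1 was counted were described in 1 Control and 1 Dnmt1iECKO library of single-cell RNA-seq. A cell was a member when it carried at least 3 of the 6 vein transcripts Slc6a2, Vwf, Prss23, Car8, Selp and Cytl1, no UMI of Ackr1, and fewer than 2 of the arterial transcripts Gja5, Bmx and Dkk2. UMIs are unique molecular identifiers, 1 for each captured mRNA molecule. TECs were cells with at least 500 detected genes, at most 10% mitochondrial UMIs, a UMI of Cdh5 or Pecam1, and none of Ptprc, Epcam, Cspg4 or Myh11. The rule found 532 members among the 18823 cells of the experiment, 323 of 9301 in the Control and 209 of 9522 in the Dnmt1iECKO library. They were drawn from 4922 Control and 2077 Dnmt1iECKO TECs.

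The Dnmt1iECKO mice were labelled Cdh5CreERT2;Dnmt1fl/fl;ZsGreenlsl/lsl, so that tamoxifen removes the maintenance DNA methyltransferase Dnmt1 and turns on the ZsGreen reporter wherever the Cdh5 promoter drives the recombinase. That promoter is active in ECs of every organ, and the deletion was therefore not limited to tumor vessels. The Control library was labelled C57BL/6 only, whereas the methods of the study describe its control mice as Cre and reporter animals with intact Dnmt1. Both groups were female, 8 to 10 weeks old and bore tumors of YUMMER1.7, an immunogenic mouse melanoma line, and a library came from pooled tumors of 3 mice. The labels place these tumors under the skin of the shoulder, and the methods describe lung tumors after injection into the tail vein. Transcripts of lung alveoli were counted in the members of both libraries. The alveolar capillary gene Car4 had 1759 UMIs in the Control and 653 in the Dnmt1iECKO members, and the alveolar epithelial gene Sftpc had 219 and 64. Live CD31+CD45- cells had been sorted, while the labels name the cell type as melanoma. Of 7 melanoma genes, Mlana, Dct, Tyrp1 and Sox10 had 0 UMIs in the members of both libraries, Tyr had 1 UMI and Pmel 5 UMIs, and only Mitf, which other cells also express, reached 112 and 54 UMIs. With 1 library per condition, no test between conditions was possible. The intervals given are exact 95% intervals of counting error. Those of expression levels and their ratios leave out the spread between cells, and the spread between mice is not known.

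Veins and venules are the part of the vascular tree through which leukocytes leave the blood. Their endothelium stores von Willebrand factor and P-selectin in Weibel-Palade bodies and releases them within minutes of activation, and it is the main site at which E-selectin, VCAM1 and ICAM1 are put on the surface in inflammation. Ackr1 is best known from the endothelium of postcapillary venules, whereas larger veins have little of it. The transcription factor Nr2f2 (COUP-TFII) sets venous identity, and Slc6a2, the noradrenaline transporter, is a marker of lung veins. Dnmt1 copies the methylation of CG dinucleotides to the new DNA strand when cells divide.

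The promoters of vein genes are shown because the CG dinucleotide is the substrate of the deleted enzyme. Each sequence below runs 5′ to 3′ from 250 bases before to 50 bases after the annotated start, comes from RefSeq, and has its CG dinucleotides in capitals. Of the 6 vein genes of the rule, Selp, Cytl1 and Prss23 were matched in the promoter table, Prss23 with 7 windows. Cytl1 and Selp are the 2 rule genes with the largest ratio between the libraries, Sele is the related E-selectin, and Ackr1 is the gene whose absence defines the members.
Selp promoter (GRCm38.p6, chr1:164115014-164115313, plus strand): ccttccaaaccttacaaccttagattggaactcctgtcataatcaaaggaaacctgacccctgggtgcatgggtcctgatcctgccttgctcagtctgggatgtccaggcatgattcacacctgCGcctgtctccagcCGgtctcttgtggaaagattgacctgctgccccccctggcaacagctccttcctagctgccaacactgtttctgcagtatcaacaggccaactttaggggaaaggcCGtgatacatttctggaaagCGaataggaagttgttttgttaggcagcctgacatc
Cytl1 promoter (GRCm38.p6, chr5:37735269-37735568, plus strand): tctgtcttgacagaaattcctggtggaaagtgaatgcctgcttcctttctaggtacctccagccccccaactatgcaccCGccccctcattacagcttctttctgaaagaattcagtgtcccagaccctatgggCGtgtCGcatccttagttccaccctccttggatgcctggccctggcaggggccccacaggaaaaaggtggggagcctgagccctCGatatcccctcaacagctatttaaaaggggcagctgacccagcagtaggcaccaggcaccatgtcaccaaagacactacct
Sele promoter (GRCm38.p6, chr1:164047984-164048283, plus strand): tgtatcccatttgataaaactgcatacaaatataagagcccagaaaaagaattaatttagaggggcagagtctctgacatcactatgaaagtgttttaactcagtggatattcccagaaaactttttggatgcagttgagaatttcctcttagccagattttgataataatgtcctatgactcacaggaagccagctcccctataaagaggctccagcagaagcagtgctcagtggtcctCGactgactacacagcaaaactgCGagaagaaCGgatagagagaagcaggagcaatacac
Ackr1 promoter (GRCm38.p6, chr1:173333454-173333753, minus strand): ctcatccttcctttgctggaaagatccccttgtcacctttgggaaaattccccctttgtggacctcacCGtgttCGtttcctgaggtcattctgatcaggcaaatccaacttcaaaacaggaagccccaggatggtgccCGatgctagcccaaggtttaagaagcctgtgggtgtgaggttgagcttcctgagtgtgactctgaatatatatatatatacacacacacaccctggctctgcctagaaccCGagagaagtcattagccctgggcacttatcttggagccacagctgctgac
These windows held 4 CG dinucleotides for Selp, 4 for Cytl1, 3 for Sele and 4 for Ackr1. The 7 windows of Prss23 held from 4 to 41, and those of other genes described here held 4 for Cxcl9, 4 for Cyp1a1, 7 for Gdpd3, 16 for Ptgs2, 19 for Icam1 and 22 for Rgs16. These genes were picked by name, and Cyp1a1 was lower in Dnmt1iECKO, so their windows do not describe the changed genes as a group. The median over 8116 promoters of genes with at least 50 UMIs in the members was 22, and 7.28% of those windows held 5 or fewer. In the whole table of 32851 promoters, the median was 7 and 43.6% held 5 or fewer. The median was 14 for 120 promoters of genes at least 2-fold higher in the Dnmt1iECKO members and 11 for 74 of genes at least 2-fold lower, so both directions lay below the genes in general. For genes counted in the members, the first listed window of a gene was used. Of the 177 higher genes, only 70 stayed at least 2-fold higher without their 5 highest members in each library, so the value of 14 is in part that of genes held by few cells. Windows with 5 or fewer CG made up 26.7% of those of the higher and 35.1% of those of the lower genes. Methylation itself was not measured in these cells.

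The members held 5692550 UMIs in the Control and 3665372 UMIs in the Dnmt1iECKO library, with medians of 14192 and 12591 per cell. All TECs had medians of 9660 and 9771, so the members were deeper than TECs in general, as a rule that needs 3 detected transcripts favours. The libraries shared 29 barcodes, of which 1 belonged to a Dnmt1iECKO member. Among the 257 Control and 263 Dnmt1iECKO cells with the highest doublet scores were 10 Control members and no Dnmt1iECKO member. Doublets were kept. Transcripts of other cell types were counted over lists of their markers. At least 10 UMIs of 6 fibroblast genes were found in 9 Control and 6 Dnmt1iECKO members, at least 10 of 4 erythroid genes in 1 and 3, at least 10 of 4 mesothelial genes in 1 and 0, and at least 10 of 7 platelet genes in 4 and 4. At least 10 UMIs of 8 epithelial genes were in 11 and 5 members, and at least 1 UMI was in 188 and 97. Of the 7 lymphatic genes, Lyve1, a hyaluronan receptor also found on some blood ECs, had 5563 and 3725 UMIs in 307 Control and 199 Dnmt1iECKO members, so that the list reached 10 UMIs in 209 and 128, and Flt4 was in 107 Control and 61 Dnmt1iECKO members. The lymphatic regulator Prox1 had 20 and 15 UMIs over all members, and Reln had none. Summed over their lists, T cell genes were at 2.99 and 8.46 CPM, myeloid genes at 38.3 and 51.6 CPM, and pericyte genes at 41.1 and 64.9 CPM. B cell genes had 5 and 12 UMIs and NK cell genes 0 and 6.

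The 6 rule transcripts are given as a description, since they chose the cells. CPM is the UMIs of a gene per 1000000 UMIs of the summed members. Vwf, the clotting factor stored in Weibel-Palade bodies (chr6:125546774-125686679, plus strand; all positions are those of GRCm38), was in 98.5% of Control and 99.0% of Dnmt1iECKO members, and the serine protease gene Prss23 (chr7:89507783-89527187) was in 96.3% and 95.7%. Nearly every member therefore had these transcripts, and the other 4 separated the members from one another. Slc6a2 (chr8:92960079-93001667) was in 62.2% of Control and 76.1% of Dnmt1iECKO members, and the carbonic anhydrase-like gene Car8 (chr4:8143362-8239041) in 65.6% and 64.1%. Selp, P-selectin (chr1:164115264-164150026), was in 48.0% and 45.5%, and the secreted factor Cytl1 (chr5:37735519-37739820) in 28.5% and 43.5%.

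The background of free RNA was gauged by how often rule transcripts were counted in T cells. The members were chosen by detection of the same transcripts, so their higher shares are in part fixed by the rule. The comparison therefore cannot show that the transcripts of a member came from the cell rather than from free RNA. After every cell was thinned to 2000 UMIs, Slc6a2 was in 33.0% and 51.9% of the members and in 0.310% and 0.0677% of the T cells (Ptprc, at least 2 of Cd3d, Cd3e and Cd3g, no Cdh5 or Epcam), which lack it. Vwf was in 67.0% and 75.7% of the thinned members and 0.310% and 0.203% of the thinned T cells, and Selp in 22.7% and 26.7% against 1.24% and 0.541%. Cytl1 was in 12.8% and 25.2% of the thinned members and in none of the 323 and 1478 thinned T cells, which allows a share of up to 1.14% and 0.249%. T cells had medians of 8942 and 9100 UMIs before thinning. The absence of Ackr1 is a count of 0 and depends on depth in turn: of the 23 Control and 41 Dnmt1iECKO venous cells that did have Ackr1, 65.2% and 58.5% still had it after thinning. A cell with little Ackr1 and few UMIs can therefore fall among the members.

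At the threshold, members with exactly 3 of the transcripts had Vwf at 362 and 352 CPM and Slc6a2 at 44.8 and 58.1 CPM in the Control and Dnmt1iECKO libraries. TECs with exactly 2, just outside, had Vwf at 228 and 205 CPM and Slc6a2 at 2.58 and 1.96 CPM. Members with 4 or more had Vwf at 1333 and 1776 CPM and Slc6a2 at 551 and 788 CPM. The 3-marker members lay between the TECs just outside the rule and the other members in both transcripts. Since the classes are set by how many of the rule transcripts were detected, that order is in part fixed by the choice of cells.

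**Figure D1:**
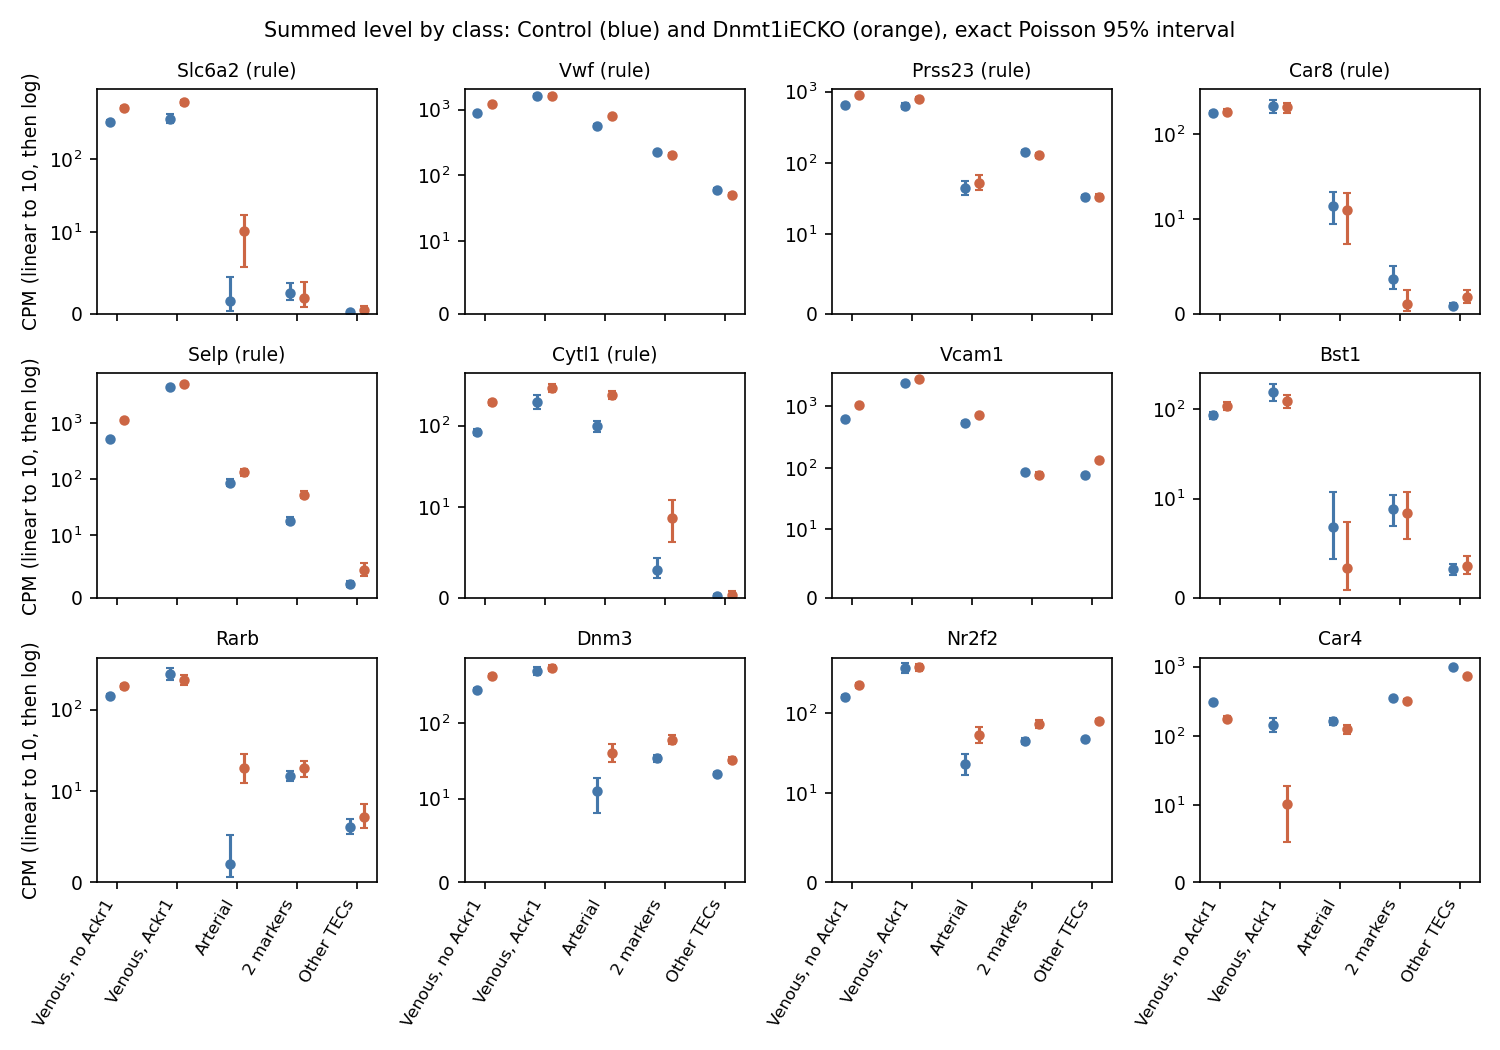
Summed level in CPM (linear up to 10, then a log scale) of 12 genes in 5 classes of TECs, with the exact Poisson 95% interval of each library. The 6 rule genes choose the venous classes. Vcam1, Bst1, Rarb, Dnm3 and Nr2f2 were also higher in both venous classes than in the other 3 classes of the same library, and Car4 was highest in the TECs that belong to none of the other 4 classes (labelled other TECs).

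Outside the rule, the genes that set the members apart from the other TECs were given by size. The other TECs here are all TECs that do not meet the vein rule. Ratios of members over other TECs are given as log2 of (CPM + 10) in each library and, since the cells were chosen by their expression, without a test. Of 9110 genes detected in at least 10% of the members of each library, 101 (1.11%) were at least 2-fold higher than in the other TECs of the Control library and 121 (1.33%) in the Dnmt1iECKO library. The retinoic acid receptor Rarb (chr14:16430839-16819156) led, at 147 against 7.95 CPM in Control and 192 against 10.3 CPM in Dnmt1iECKO. Dnm3, a dynamin of membrane scission, was at 277 against 23.7 CPM in Control and 424 against 38.5 CPM in Dnmt1iECKO. Bst1, a cell-surface NAD-cleaving enzyme, was at 85.7 against 4.32 CPM in Control and 108 against 4.21 CPM in Dnmt1iECKO. The other leading genes were the matrix metalloproteinase Mmp16, Samd5, the integrin ligand Vcam1, the adhesion molecules Kirrel3 and Amigo2, the Rac regulator Chn2, Tmem45a, the metalloproteinase Tll1 and the lysosomal protease Ctsh, with a lower log2 ratio of the 2 libraries between 2.28 for Ctsh and 3.12 for Rarb.

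Car4, Ednrb and Fibin, which belong to a list of alveolar capillary genes, and the arterial genes Efnb2 and Cxcl12 were among the 12 genes lowest in the members relative to the other TECs. The alveolar carbonic anhydrase Car4 was at 309 against 829 CPM in Control and 178 against 611 CPM in Dnmt1iECKO. The arterial ephrin Efnb2 was at 95.7 against 258 CPM in Control and 89.8 against 249.9 CPM in Dnmt1iECKO, and the chemokine Cxcl12 at 77.6 against 234 CPM in Control and 131 against 363 CPM in Dnmt1iECKO. Osteopontin (Spp1) had the lowest ratio, at 8.78 against 62.4 CPM in Control and 11.5 against 142 CPM in Dnmt1iECKO. Fibin, Ednrb, Igfbp7, Lgals1, Mgll, Pde8b, Kif26b and 2610203C22Rik completed the 12 lowest, with log2 ratios between -1.92 and -1.25 over both libraries. The members were not free of capillary transcripts. Summed over 8 general capillary genes, they had 4944 and 3869 CPM in Control and Dnmt1iECKO, against 5559 and 4950 CPM in the other TECs. Members with 3 markers had 5647 and 4297 CPM, and the venous cells with Ackr1 2789 and 2301 CPM. One of these genes, Cd36, was in 320 Control and 203 Dnmt1iECKO members.

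Venous cells with Ackr1, 23 in the Control and 41 in the Dnmt1iECKO library, meet the same rule apart from Ackr1. They had the leading transcripts as well, with Rarb at 273 and 230.4 CPM and Dnm3 at 487 and 543 CPM, and more of the inducible adhesion genes. Vcam1 was at 622 and 1065 CPM in the Control and Dnmt1iECKO members and at 2382 and 2733 CPM in the cells with Ackr1. Sele was at 88.7 and 152 CPM against 1034 and 814 CPM, and Selp at 525 and 1143 CPM against 4282 and 4898 CPM. Nr2f2 was at 161 and 223 CPM against 368 and 379.9 CPM. The members had more Car4, at 309 and 178 CPM against 145 and 10.6 CPM, and more Cxcl12, at 77.6 and 131 CPM against 13.0 and 16.4 CPM. In the small Control class 1 cell held 36.6% of the Slc6a2 UMIs.

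The first comparison was of how common these cells were. Members made up 6.56% of the Control TECs (323 cells, 5.89 to 7.29) and 10.1% of the Dnmt1iECKO TECs (209 cells, 8.80 to 11.4), a ratio of 1.53 (1.28 to 1.83) or a log2 ratio of 0.62 (0.36 to 0.87). The intervals of the shares did not overlap. Thinning all TECs to 2000 UMIs before the rule left 3.0% of the Control TECs (137 cells, 2.53 to 3.54) and 7.09% of the Dnmt1iECKO TECs (135 cells, 5.98 to 8.34), with a log2 ratio of 1.24 (0.89 to 1.59). At 5000 UMIs the log2 ratio was 0.87 (0.56 to 1.18). Dropping Selp from the rule, so that 3 of 5 transcripts were needed, gave 0.68 (0.40 to 0.96). A larger share was not particular to the venous cells. Arterial TECs, with 2 or more of Gja5, Bmx and Dkk2, were 2.21% of the Control TECs (109 cells) and 3.71% of the Dnmt1iECKO TECs (77 cells). Their log2 ratio was 0.74 (0.30 to 1.18). These are shares of the sorted and sequenced TECs, and more of one cell type and fewer of the others cannot be told apart. In the other TECs, 5 of the 6 rule transcripts were also higher in the Dnmt1iECKO library and 1 was lower. Their median log2 ratio was 0.60, against -0.01 over all genes. A higher level can bring more cells over the limit of 3 transcripts, and its part in the shares was not tested.

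Grouped by their number of vein transcripts, cells with 4, 5 or 6 had a higher share in the Dnmt1iECKO library, with intervals above 0. Cells with exactly 3 of the 6 were 3.01% of the Control TECs (148 cells, 2.55 to 3.52) and 3.32% of the Dnmt1iECKO TECs (69 cells, 2.59 to 4.19), a log2 ratio of 0.14 (-0.29 to 0.57). The log2 ratio was 0.92 (0.39 to 1.45) for 4, 0.84 (0.27 to 1.39) for 5 and 1.05 (0.35 to 1.74) for all 6. Cells with exactly 2, outside the rule, were less common in the Dnmt1iECKO library, with a log2 ratio of -0.25 (-0.46 to -0.03). Members were also divided by Slc6a2, the noradrenaline transporter, which is 1 of the 6 counted transcripts. That division therefore overlaps with the one by number of transcripts and is not a separate result. Members with an Slc6a2 UMI were 4.08% of the Control TECs (201 cells, 3.55 to 4.67) and 7.66% of the Dnmt1iECKO TECs (159 cells, 6.55 to 8.88), whereas members without one were 2.48% and 2.41%, with a log2 ratio of -0.04 (-0.55 to 0.44). Whether the ratios of these subgroups differ from one another was not tested, as there is 1 library per condition.

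**Figure D2:**
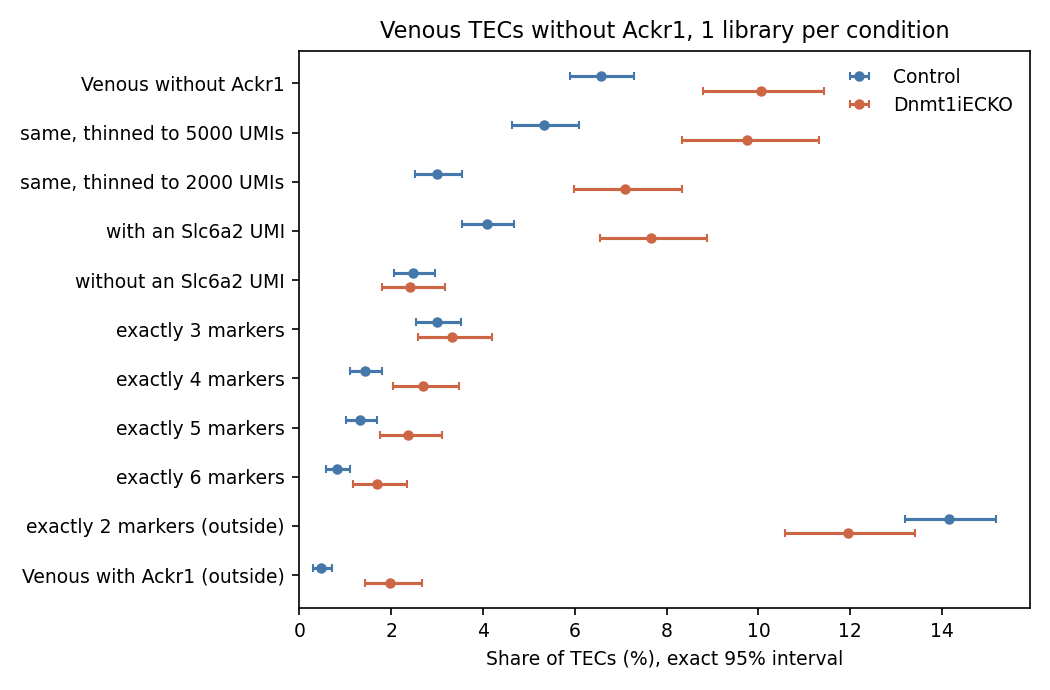
Share of TECs in percent, with exact 95% intervals, for the venous cells without Ackr1 and their subgroups in the Control (blue) and Dnmt1iECKO (orange) library. The shares of members with 4, 5 or 6 markers and of members with an Slc6a2 UMI were higher in the Dnmt1iECKO library, while the intervals of those with exactly 3 markers or without an Slc6a2 UMI overlapped.

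The members carried 25 combinations of the 6 transcripts, of which the 7 most common are given. Vwf with Prss23 and Car8 and none of the other 3 was found in 46 Control and 6 Dnmt1iECKO cells, a log2 ratio of the shares of TECs of -1.69 (-3.21 to -0.46). The same 3 transcripts with Slc6a2 and Cytl1 were found in 23 Control and 31 Dnmt1iECKO cells, a log2 ratio of 1.68 (0.85 to 2.52). With Slc6a2 and Selp instead, they were found in 40 and 14 cells, a log2 ratio of -0.27 (-1.26 to 0.64), so that not every combination of many transcripts was more common in the Dnmt1iECKO library. With Slc6a2 alone they were found in 41 and 38 cells, a log2 ratio of 1.14 (0.46 to 1.81). All 6 were found in 40 and 35 cells, 1.05 (0.35 to 1.74). Vwf and Prss23 with Selp were found in 49 and 23 cells, 0.15 (-0.63 to 0.90), and with Slc6a2 in 31 and 23, 0.81 (-0.03 to 1.64). Venous cells with Ackr1 were 0.467% of the Control TECs (23 cells, 0.296 to 0.700) and 1.97% of the Dnmt1iECKO TECs (41 cells, 1.42 to 2.67), a log2 ratio of 2.08 (1.31 to 2.88).

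The second comparison was of expression within the members. The targeted gene Dnmt1 (chr9:20907209-20959888) was at 49.9 CPM (44.3 to 56.0) in Control members and 21.0 CPM (16.6 to 26.3) in Dnmt1iECKO members, a log2 ratio of -1.25 (-1.63 to -0.88). The Control members thus had more than the Dnmt1iECKO members, and the intervals did not overlap. In the other TECs the level was 48.8 and 26.5 CPM, a log2 ratio of -0.88 (-1.02 to -0.75). In the venous cells with Ackr1 it was 29.7 and 46.3 CPM, from 16 and 48 UMIs, with a log2 ratio of 0.64 (-0.20 to 1.56) that includes 0. T cells, which were chosen to lack Cdh5, had 76.8 and 111 CPM. A 3′ count cannot tell a transcript of the deleted allele from an intact one. The other 6 genes of DNA methylation in the list had log2 ratios from -0.25 for the demethylase Tet1 to 0.56 for Uhrf1, which brings Dnmt1 to DNA.

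Over all 10214 genes with at least 50 UMIs in the members of both libraries together, the median log2 ratio was 0.00 and 49.6% were above 0. The interval lay above 0 for 1219 of these genes and below 0 for 1231. The counts of the lists below are to be read against these shares. At least 2-fold higher in Dnmt1iECKO were 177 genes (1.73%) and at least 2-fold lower were 100 (0.979%). Many of the higher genes rested on a handful of cells. Without the 5 members of each library with the most UMIs of a gene, 70 of the 177 were still at least 2-fold higher, and 91 of the 100 were still at least 2-fold lower. Of the 177, 33 had fewer than 10 UMIs left, and 5 cells are a larger share of the 209 Dnmt1iECKO than of the 323 Control members, which favours lower ratios. Among genes with at least 50 UMIs left, 38 were at least 2-fold higher and 167 at least 2-fold lower. The most extreme ratios were of this kind. The imprinted RNA Meg3 had 1 UMI in the Control and 166 in the Dnmt1iECKO members, of which 162 were in 1 cell, and its neighbour Rian had 0 and 87, all in 1 cell. Beta globin Hbb-bs had 15 and 998 UMIs, of which 908 were in 1 cell, and the other globins of the list (Hba-a1, Hba-a2 and Hbb-bt, close copies whose reads are hard to assign) went with it. Decorin (Dcn), a fibroblast proteoglycan, had 73 and 425 UMIs with 68 and 415 in the highest cell, and the mesothelial gene Upk3b had 58 UMIs in the Control, 57 of them in 1 cell, and 0 in the Dnmt1iECKO members. Igfbp3, Ror2 and Sntg1 among the 12 highest, and Col4a3 and Has2 among the 12 lowest, likewise had at least 90% of the UMIs of their higher library in 5 cells.

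**Figure D3:**
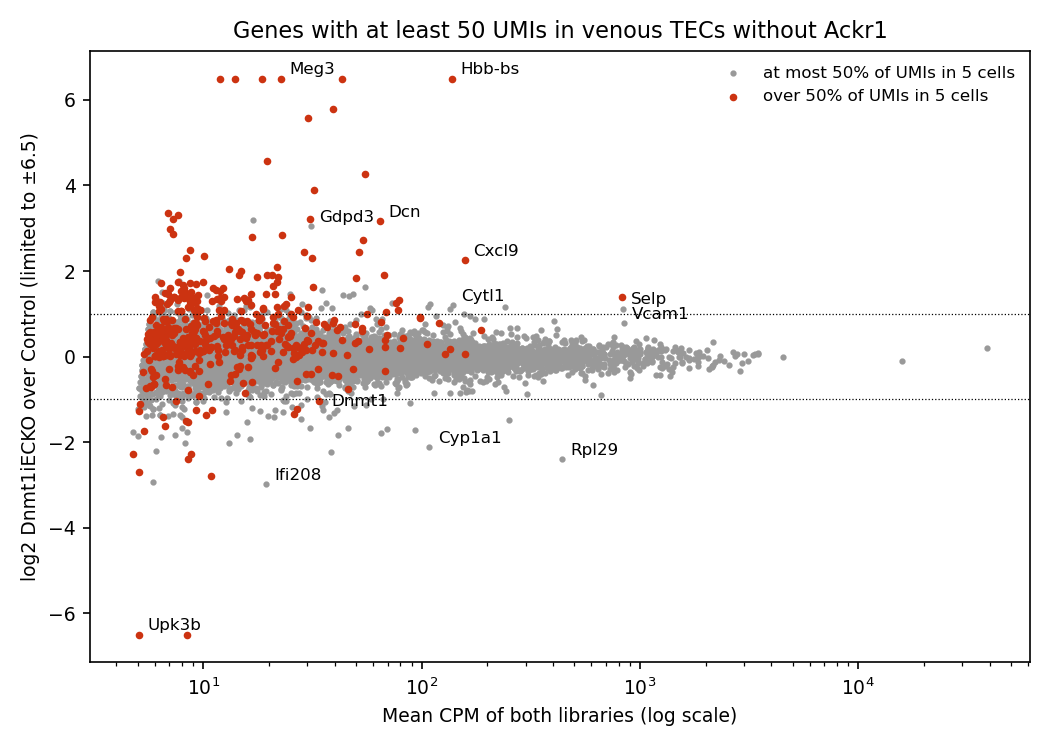
Log2 ratio of Dnmt1iECKO over Control against mean CPM (log axis) for 10214 genes in the members, with genes absent from 1 library drawn at the upper or lower limit of the plot. Red points have over 50% of the UMIs of their higher library in 5 cells, and they make up most of the highest ratios, whereas Gdpd3, Cyp1a1, Rpl29 and Ifi208 are spread over many cells.

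The remaining genes among the 12 highest and 12 lowest are given in full. The aryl hydrocarbon receptor target Cyp1a1 (chr9:57687928-57703824) was at 177 CPM (166 to 188) in Control members and 40.7 CPM (34.4 to 47.7) in Dnmt1iECKO members, a log2 ratio of -2.12 (-2.38 to -1.87), in 190 Control and 61 Dnmt1iECKO members. In the other TECs it was at 230.4 and 36.2 CPM, a log2 ratio of -2.67, and in the cells with Ackr1 at 96.6 and 48.2 CPM, a log2 ratio of -1.0. T cells had 0 and 2 UMIs of it. The ribosomal protein gene Rpl29 (chr9:106429454-106431568) was at 739 CPM (716 to 761) in Control members and 141 CPM (129 to 154) in Dnmt1iECKO members, a log2 ratio of -2.39 (-2.52 to -2.26). It was also lower in T cells, at 1433 and 247 CPM, with a log2 ratio of -2.54, so that its difference was not limited to ECs. Rpl29 has processed pseudogenes in the genome, and how reads were shared with them is uncertain. Gdpd3, a phospholipase D-like enzyme (chr7:126766334-126775649), was at 6.68 CPM (4.72 to 9.16) in Control members and 55.4 CPM (48.0 to 63.5) in Dnmt1iECKO members, a log2 ratio of 3.05 (2.55 to 3.59). In the other TECs it was at 6.35 and 163 CPM and in T cells at 0.544 and 156 CPM, the latter from 2 and 2789 UMIs. A difference of mice or preparation that affects all cells of a library cannot be told apart from the deletion in any of these ratios.

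The interferon-inducible Ifi208 (chr1:173673675-173698395) was at 34.3 and 4.37 CPM, a log2 ratio of -2.97 (-3.81 to -2.24), and was also lower in T cells, with a log2 ratio of -1.10. Ifi208, Lilrb4a and Serpina3f belong to families of close copies, so their counts are uncertain. The inhibitory receptor gene Lilrb4a was at 21.1 and 5.18 CPM (-2.02), the serpin Serpina3f at 63.2 and 13.4 CPM (-2.24) and the noncoding RNA Dubr at 13.2 and 3.27 CPM (-2.01). Of these 3, Lilrb4a and Serpina3f had T-cell log2 ratios of 0.05 and 0.00, while Dubr had -1.04. The monocarboxylate transporter Slc5a12, at 59 and 5 UMIs, Cpne9, at 83 and 11 UMIs, and the capillary receptor Cd300lg, at 57 and 8 UMIs, were the remaining lower genes and rest on few UMIs. Higher in the members were Rgs16, a regulator of G protein signals, at 3.34 and 30.6 CPM, with a log2 ratio of 3.19 (2.48 to 3.98) and 16 Control and 31 Dnmt1iECKO members with a UMI, and Mnd1, a meiotic recombination gene, at 1.41 and 13.1 CPM, with 8 Control and 15 Dnmt1iECKO. Mnd1 was concentrated, with 77.1% of its 48 Dnmt1iECKO UMIs in 5 cells and 22 in 1 cell. In the other TECs their log2 ratios were 0.67 and 2.66.

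Of the 6 vein genes of the rule, 5 were at a higher level in the Dnmt1iECKO members, with intervals above 0, and Car8 was close to equal. This is a description, because the same transcripts chose the cells. Selp was at 525 CPM (507 to 544) in Control members and 1143 CPM (1109 to 1178) in Dnmt1iECKO members, a log2 ratio of 1.12 (1.05 to 1.19), although Selp was detected in no larger share of the Dnmt1iECKO members. Cytl1 was at 84.5 CPM (77.1 to 92.4) in Control members and 195 CPM (181 to 209) in Dnmt1iECKO members, a log2 ratio of 1.20 (1.03 to 1.37). Slc6a2 had a log2 ratio of 0.64 (0.54 to 0.73), Vwf of 0.44 (0.39 to 0.50), Prss23 of 0.46 (0.39 to 0.53) and Car8 of 0.06 (-0.09 to 0.20). Among members with 4 or more markers the ratios were 0.99 for Selp, 0.96 for Cytl1, 0.52 for Slc6a2, 0.41 for Vwf, 0.42 for Prss23 and -0.02 for Car8. Among members with 3 markers, 3 of the 6 were higher, with log2 ratios of 1.23 for Selp, 2.77 for Cytl1 and 0.38 for Slc6a2, against -0.04 for Vwf, -0.04 for Prss23 and -0.56 for Car8. In the venous cells with Ackr1 Selp had a log2 ratio of 0.19 (0.12 to 0.27) and Vwf of 0.03 (-0.09 to 0.15).

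Of 12 other vein genes, 11 were higher in the Dnmt1iECKO members, with a median log2 ratio of 0.29 against 0.00 over all genes, of which 49.6% were higher, and a range from -0.08 to 0.47. None was 2-fold different. Nr2f2 was at 161 CPM (151 to 172) in Control members and 223 CPM (208 to 239) in Dnmt1iECKO members, a log2 ratio of 0.47 (0.33 to 0.61). The cholesterol hydroxylase Ch25h was at 78.5 and 109 CPM, log2 ratio 0.47 (0.28 to 0.67), and the semaphorin receptor Nrp2 at 133 and 184 CPM, log2 ratio 0.46 (0.31 to 0.62). Ephb4, the receptor that marks veins against arteries, had 830 and 575 UMIs and a log2 ratio of 0.11, and Hdac9, at -0.08, was the 1 gene below 0. The medians were 0.41 in members with 3 markers and 0.22 in those with 4 or more, 0.21 in the other TECs and -0.19 in the cells with Ackr1. Of 10 arterial genes counted, 4 were higher and 6 lower, with a median of -0.10. Mecom, a transcription factor of arterial ECs, was at 65.3 and 153 CPM, log2 ratio 1.22 (1.03 to 1.42), Bmx at 10.4 and 28.4 CPM, log2 ratio 1.45 (0.98 to 1.94), and Cxcl12 at 77.6 and 131 CPM, log2 ratio 0.75 (0.56 to 0.94). Hey1 was the remaining higher gene. The 6 lower genes lay between -0.32 for the gap junction gene Gja4 and -0.09 for Efnb2. Bmx is 1 of the transcripts that the rule limits, and 58.7% of its Dnmt1iECKO UMIs were in 5 cells. The log2 of Mecom was 0.44 in members with an Slc6a2 UMI and 0.63 in those with no UMI of the 3 arterial transcripts.

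Transcripts of the alveolar capillary were lower. All 8 genes of aerocytes, the thin capillary cells of gas exchange, were lower in the Dnmt1iECKO members, with a median log2 ratio of -0.79, and 3 were at least 2-fold lower. Car4 was at 309 CPM (295 to 324) in Control members and 178 CPM (165 to 192) in Dnmt1iECKO members, a log2 ratio of -0.79 (-0.93 to -0.66). Rgs6, at 144 and 43.9 CPM, had -1.71 (-1.96 to -1.46), and the secreted factor Fibin, at 106 and 32.7 CPM, had -1.70 (-1.99 to -1.41). These transcripts were held by part of the members: Car4 was in 40.6% and 29.7% of them, and after thinning in 18.7% and 13.1%, against 0.929% and 0.0677% of T cells. Of 8 general capillary genes, 7 were lower, with a median of -0.37, among them the growth factor receptor Kit at 239.6 and 167 CPM, log2 ratio -0.52 (-0.66 to -0.38). In the other TECs the medians of these lists were -0.50 and -0.05. Within members of 4 or more markers the medians were -0.87 and -0.32. Transcripts of alveolar epithelium were lower as well: the 8 epithelial genes summed to 129 CPM in Control and 67.4 CPM in Dnmt1iECKO members, with none of the 8 at 0, and their part in the capillary values was not tested. Of 14 pan-endothelial genes, 11 were lower, with a median of -0.13 and the lowest ratio, -0.36, for the VEGF receptor Kdr. The interval was below 0 for 8 of the 14, and for 1231 of all 10214 genes. Cdh5, which the rule used, was at 1093 and 982 CPM, log2 ratio -0.15 (-0.21 to -0.09), and Pecam1 at 1221 and 1206 CPM, log2 ratio -0.02 (-0.07 to 0.04).

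**Figure D4:**
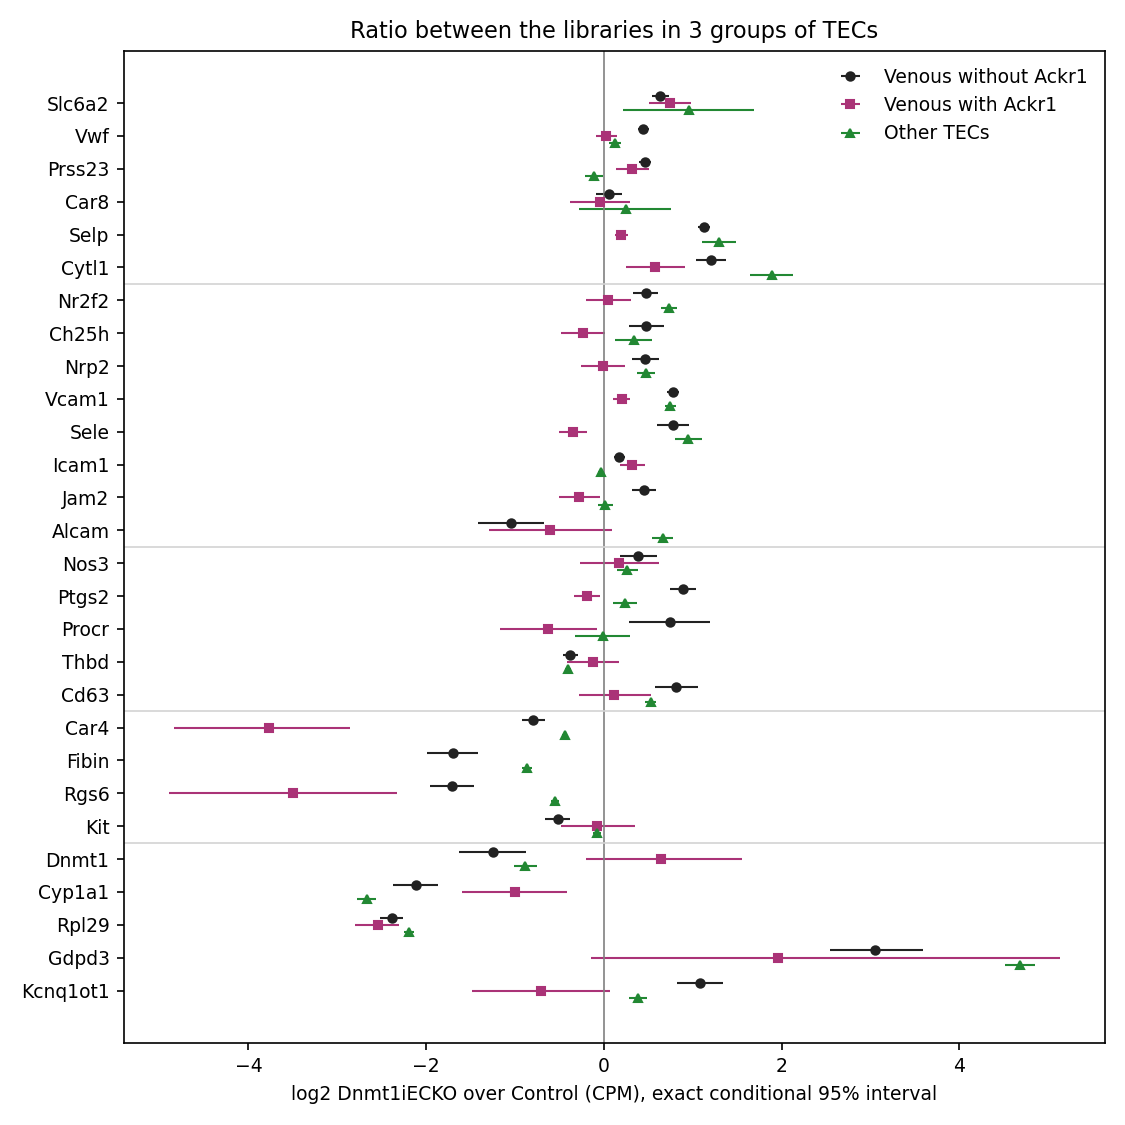
Log2 ratio of Dnmt1iECKO over Control, with exact conditional 95% intervals, for named genes in the members (black circles), the venous cells with Ackr1 (magenta squares) and the other TECs (green triangles). Fibin has no square because no UMI was counted in the Dnmt1iECKO cells with Ackr1. Selp, Cytl1, Vcam1 and Sele lie to the right of 0 in the members and in the other TECs, the capillary genes to the left, and the squares of Sele, Jam2 and Ptgs2 lie left of 0.

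Molecules of leukocyte capture were then compared. Of 15 such genes counted, 8 were higher and 7 lower in the Dnmt1iECKO members, with a median log2 ratio of 0.05, close to the 0.00 of all genes. The inducible selectins and Vcam1 had the 3 highest ratios, but Selp was among the transcripts that chose the cells. Without Selp, Pecam1 and Cdh5, which the rule used, 7 of 12 were higher and 5 lower, with a median of 0.06. Vcam1, the ligand of the integrin VLA-4 (chr3:116109949-116129688), was at 622 CPM (601 to 642) in Control members and 1065 CPM (1032 to 1099) in Dnmt1iECKO members, a log2 ratio of 0.78 (0.71 to 0.84). It was found in 56.3% and 64.6% of members, and after thinning in 31.8% and 38.3% against 1.55% and 1.69% of T cells. Members with 4 or more markers had 938 and 1584 CPM, log2 ratio 0.76 (0.69 to 0.83), and those with 3 had 225 and 235 CPM, log2 ratio 0.07 (-0.13 to 0.27). E-selectin (Sele) was at 88.7 CPM (81.1 to 96.8) in Control members and 152 CPM (139.6 to 165) in Dnmt1iECKO members, a log2 ratio of 0.78 (0.60 to 0.95), with about 59.2% and 50.3% of its UMIs in 5 cells. Icam1 was at 934 and 1054 CPM, log2 ratio 0.17 (0.11 to 0.23), and the junctional molecule Jam2 at 177 and 242 CPM, log2 ratio 0.45 (0.32 to 0.58). Alcam was lower, at 45.5 and 22.1 CPM, log2 ratio -1.04 (-1.42 to -0.68). Vcam1 and Sele were higher in the other TECs of the Dnmt1iECKO library too, with log2 ratios of 0.75 and 0.95, whereas in the cells with Ackr1, where both were at a higher level, the ratios were 0.20 and -0.35.

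Products and machinery of the Weibel-Palade body were compared next. Of 10 genes, 7 were higher, against 49.6% of all genes, with a median log2 ratio of 0.51. Without Selp and Vwf, which belong to the rule, 5 of 8 were higher, with a median of 0.33. With Selp and Vwf kept in the list, its median was 0.10 in members with 3 markers, 0.40 in those with 4 or more and 0.11 in those with an Slc6a2 UMI. Besides Selp and Vwf, the tetraspanin Cd63, which holds P-selectin at the surface, was at 47.3 and 83.2 CPM, log2 ratio 0.82 (0.58 to 1.06). Of its UMIs, 24.2% and 43.3% were in 5 cells, without which it was at 35.8 and 47.2 CPM. Myrip, a linker of the granules to actin, had 406 and 388 UMIs, with a log2 ratio of 0.57. The vessel-destabilizing ligand Angpt2 had 41 and 49 UMIs and 0.89. Tissue plasminogen activator (Plat) had 160 and 388 UMIs and a log2 ratio of 1.91, but 218 of the Dnmt1iECKO UMIs were in 1 cell and 81.7% in 5 cells. Endothelin (Edn1) was at -0.13. Of the genes of clotting control, thrombomodulin (Thbd), a brake on thrombin, was lower at 610.1 CPM (590.0 to 631) in Control members and 469 CPM (447 to 491) in Dnmt1iECKO members, a log2 ratio of -0.38 (-0.46 to -0.30), as it was in the other TECs (-0.40). The protein C receptor Procr was higher at 14.1 and 23.5 CPM, log2 ratio 0.74 (0.28 to 1.20), and the thrombin receptor F2r had 114 and 143 UMIs (0.96). Of 9 genes of vascular tone, 7 were higher, against 49.6% of all genes, with a median of 0.09. Cyclooxygenase 2 (Ptgs2) was at 123 and 228 CPM, log2 ratio 0.89 (0.74 to 1.03), and nitric oxide synthase Nos3 at 72.7 and 95.2 CPM, log2 ratio 0.39 (0.18 to 0.60). Of the Ptgs2 UMIs, 38.3% and 49.2% were in 5 cells, without which it was at 76.2 and 116 CPM.

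Lists of cytokine responses pointed in different directions. Of 20 NF-kB targets, 16 were higher, against 49.6% of all genes, with a median log2 ratio of 0.17. These include Vcam1, Sele, Icam1 and Ptgs2, and the inhibitor Nfkbia had 0.16, Relb 0.24 and the brake Tnfaip3 -0.20. In the other TECs 18 of 21 NF-kB targets were higher, with a median of 0.24. In the venous cells with Ackr1 8 of 17 were higher, with a median of -0.004. Of 24 genes induced by interferon gamma, 9 were higher and 15 lower, with a median of -0.06. The 3 that were over 2-fold higher were carried by few cells. The T cell attractant Cxcl9 was at 54.6 CPM (48.7 to 61.1) in Control members and 260.0 CPM (244 to 277) in Dnmt1iECKO members, a log2 ratio of 2.25 (2.06 to 2.44), in 21 Control and 20 Dnmt1iECKO members, with 82.6% and 85.7% of the UMIs in 5 cells. In members with 4 or more markers it was at 46.1 and 48.3 CPM, log2 ratio 0.07 (-0.30 to 0.44), and in those with 3 at 65.4 and 598 CPM, log2 ratio 3.19 (2.95 to 3.44). Ubd and the tryptophan-degrading enzyme Ido1 had 91 and 321 UMIs and 52 and 82 UMIs and were likewise held by few cells, 13 Control and 14 Dnmt1iECKO for Ubd and 22 Control and 17 Dnmt1iECKO for Ido1, with log2 ratios in members of 4 or more markers of 0.27 and -0.61. Cxcl10, which binds the same receptor as Cxcl9, was at 361 and 387 CPM, log2 ratio 0.10 (0.00 to 0.20). Of 23 genes of the type I interferon response, 16 were lower, with a median of -0.14, including Ifit1 at 1186 and 439 UMIs (-0.80) and Isg15 at 2044 and 857 (-0.62), while Rsad2, at 82 and 119, had 92.4% of its Dnmt1iECKO UMIs in 5 cells.

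All 7 class II genes of antigen presentation were higher, against 49.6% of all genes, with a median log2 ratio of 0.23 and a range from 0.04 to 0.41. The interval was above 0 for 6 of the 7, and for 1219 of all 10214 genes. The median of the class II genes in the other TECs was 0.24. The 11 class I genes had a median of 0.00. The checkpoint ligand Cd274 (PD-L1) was at 106 and 122 CPM, log2 ratio 0.20 (0.02 to 0.38), and its direction turned with the number of markers, 0.99 for 3 and -0.92 for 4 or more. The costimulatory ligand Icosl had 30 and 38 UMIs, log2 ratio 0.98 (0.25 to 1.72), and Cd40, a receptor for T cell help, had 290 and 134 UMIs (-0.48). Tnfsf4 (OX40L) and Pdcd1lg2 (PD-L2) had 0 UMIs in the members of both libraries, Cd80 had 1 and 7, and Cd86 1 and 4. A count of 0 allows up to 3 UMIs, or 0.527 and 0.818 CPM.

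The medians were -0.01 for 14 immediate early genes, 0.09 for 9 genes of the IL-6 family, 0.04 for 10 of the Notch pathway, -0.10 for 14 of BMP and Tie signalling and -0.10 for 10 of sprouting, in which Kdr is also listed. Of 16 cell cycle genes, 12 were higher, against 49.6% of all genes, with a median of 0.26. Cells with both Mki67 and Top2a were 22 Control and 16 Dnmt1iECKO members. Of 16 germline genes that DNA methylation is known to silence, only Brdt reached 50 UMIs, with 46 and 19 (-0.64), and 9 had 0 UMIs in both libraries. Of 12 imprinted genes counted, 7 were higher with a median of 0.16. Kcnq1ot1, an imprinted antisense RNA (chr7:143203458-143296549), was at 37.9 and 80.2 CPM, log2 ratio 1.08 (0.82 to 1.34), in 81 Control and 57 Dnmt1iECKO members, and its log2 ratio in T cells was 0.42.

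**Figure D5:**
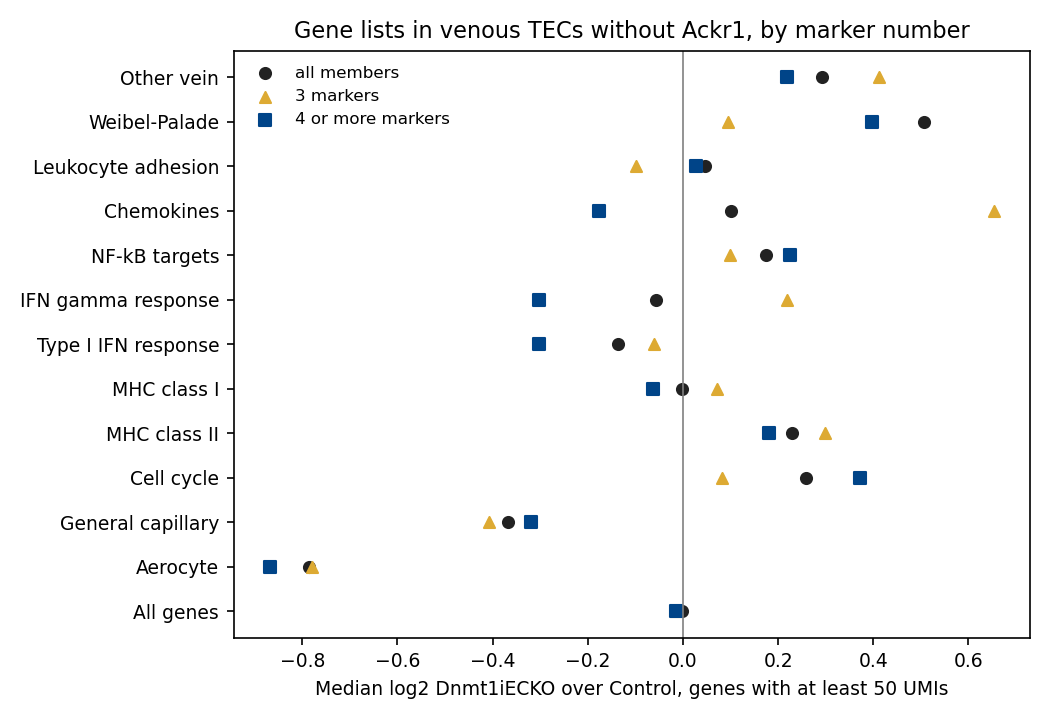
Median log2 ratio of Dnmt1iECKO over Control for 12 gene lists and for all genes, over genes with at least 50 UMIs in all members (black), members with 3 markers (yellow) and members with 4 or more markers (blue). The other vein and Weibel-Palade lists lie right of 0 and the capillary and aerocyte lists left of 0 in both strata, whereas the chemokine and interferon gamma medians lie on opposite sides of 0 in the strata. The Weibel-Palade list includes Vwf and Selp, which chose the cells, and its strata were not computed without them.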

How the data were processed

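Per the labels and methods, the authors made 1 GEM-X 3′ library from sorted CD31+CD45- cells of 3 pooled tumor-bearing mice per condition and deposited the filtered UMI count matrix of each, made with Cell Ranger 9.0.1 on mm10. The deposited counts are raw and hold no annotation of cells. The libraries held 123830489 (Control) and 141433493 (Dnmt1iECKO) UMIs. Members and gene lists were chosen with earlier results of these data known. Cells were selected by the rule given in the results, and UMIs of a gene were summed over the members of a library and divided by all their UMIs (CPM). Ratios were described for genes with at least 50 UMIs over both libraries. Shares carry exact Clopper-Pearson, levels exact Poisson and ratios exact conditional 95% intervals, which cover counting error only. A count of 0 was bounded by a floor of 3 counts. With 1 library per condition no test was made. Named genes were those of the lists, the 12 highest and 12 lowest ratios with the same sign in members of 3 and of 4 or more markers, and the 12 leading and 12 lowest genes of members over other TECs. The 12 lowest genes over other TECs, Rian and the list medians without genes of the rule were added after their values were seen. Doublets were scored with Scrublet (scanpy 1.11.5) and the highest 0.4% per 1000 cells left out only as an alternative. Cells were thinned at random to 2000 or 5000 UMIs. Gene positions came from GENCODE on GRCm38, in which 32158 of 32285 gene identifiers matched, and promoters from RefSeq on GRCm38.p6. Python 3.11.15, numpy 2.4.6, scipy 1.17.1 and pandas 2.3.3 were used. The intervals were tested only on simulated Poisson counts, the model that they assume. That test could not show how the clustering of UMIs in few cells affects them. Alternatives were other limits on cells, markers, depth, scaling and gene counts.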

Additional observations from a re-analysis of the deposited data

Results flagged for a closer look

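Some genes had log2 ratios of Dnmt1iECKO over Control on opposite sides of 0 in the members and in another class of TECs, with both intervals clear of 0. The difference between classes was not tested, since each condition has 1 library. Against the other TECs, this was the case for Prss23, at 0.46 in the members and -0.12 (-0.22 to -0.02) in the other TECs, and for the adhesion molecule Alcam, at -1.04 and 0.66 (0.54 to 0.78). Prss23 is a gene of the rule, so its levels depend on the choice of cells.

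Against the venous cells with Ackr1, 5 genes were opposite. Sele had 0.78 in the members and -0.35 (-0.50 to -0.19) in the cells with Ackr1, and Jam2 had 0.45 and -0.28 (-0.51 to -0.05). Ptgs2 had 0.89 and -0.19 (-0.34 to -0.04), and Procr 0.74 and -0.63 (-1.17 to -0.08). Bmx, which the rule limits, had 1.45 and -2.66 (-4.13 to -1.39). The Control class with Ackr1 is 23 cells, and a few of them can set such a value.

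Gdpd3 was higher in the Dnmt1iECKO library outside the ECs too. In T cells, which are not members and had come through the sort, its log2 ratio was 8.16, from 2 UMIs in the Control library, against 3.05 (2.55 to 3.59) in the members. Rpl29 was lower in both as well. A difference between the mice or the preparations of the 2 libraries cannot be told apart from the deletion in these ratios.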

How the results depend on the processing

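No paired analysis was possible because each condition has 1 library, and for the same reason no replicate could be left out. The log2 ratio of the share of members was above 0 under all 15 alternatives, from 0.56 to 1.24. It was 0.92 with at least 4 markers, 0.91 with Slc6a2 among the markers, 0.87 after thinning to 5000 UMIs and 1.24 after thinning to 2000. Dnmt1 was lower under all 19 alternatives. It was -0.86 with cells of any Ackr1 count, -0.80 after thinning to 5000 UMIs and -0.73 after thinning to 2000. The count of genes at least 2-fold higher, 177, was 69 with at least 4 markers, 91 with Slc6a2 among the markers, 60 after thinning to 2000 UMIs, 380 with a minimum of 20 UMIs per gene and 99 with 100. Under settings chosen after seeing the data, it was 115 without cells of 10 or more fibroblast, mesothelial or erythroid UMIs and 38 without each gene's 5 highest members. The count of genes at least 2-fold lower, 100, was 235 with a minimum of 20 UMIs, 46 with 100, 155 as a mean over cells and 167 without the 5 highest members, which are a larger share of 209 than of 323 cells. Of 48 genes, 41 kept their sign under every alternative run. Car8 and Pecam1, whose intervals include 0, changed sign within -0.13 to 0.32 and -0.08 to 0.03, and 5 genes whose intervals lie above 0 reversed. The log2 of Cxcl10 was -0.15 with at least 4 markers, -0.0164 without Selp and -0.0346 as a mean over cells. The log2 of Cd274 was -0.92 with at least 4 markers, -0.37 without Selp, -0.64 with Slc6a2, -0.22 at 5000 UMIs and -0.21 without the 5 highest members. The log2 of Ido1 was -0.61 with at least 4 markers, -0.78 with Slc6a2, -1.86 at 5000 UMIs and -0.10 without the 5 highest members. The log2 of Ubd was -1.30 with Slc6a2 and -3.58 at 5000 UMIs, and the log2 of Plat was -0.27 with Slc6a2. The cause was not tested. Of 14 list medians, 7 kept their sign under every alternative: other vein, aerocyte (from -2.29 to -0.40), general capillary, Weibel-Palade (from 0.11 to 0.57), type I interferon, NF-kB and pan-endothelial. The other 7 changed sign under at least 1: artery, leukocyte adhesion, chemokines, interferon gamma, class I, class II (lowest -0.03) and cell cycle (lowest -0.11). The Weibel-Palade median includes Vwf and Selp, which chose the cells, and no alternative left them out of the list.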
